A study of Homo sapiens with 20 samples.

Results

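RNA was compared after 5 h between cells given an intact disulfide compound, chaetocin or chetomin, and cells given the MeS analog of that compound. The analogs lack the intact disulfide. Each compound was used at 500 nM on HCT116, a human colorectal carcinoma cell line. The comparison took 8 of the 20 libraries of the series: 2 of chaetocin, 2 of chetomin, 2 of MeS-chaetocin and 2 of MeS-chetomin, giving 4 intact against 4 analog libraries. The genes were the 14162 listed in the tables of all 4 compounds at this time, of 14222 listed in any of them. The scaffold, chaetocin type or chetomin type, entered the model as a covariate, and the vehicle libraries, at 0.5% DMSO, were not used in the test. The same 4 compounds at 12 h gave the other 8 compound libraries. The labels call the 2 libraries of a group biological replicates and give no link between libraries that carry the same number, so p-values measure the spread between these libraries, which may be technical.

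Chaetocin and chetomin are fungal products of the epipolythiodioxopiperazine class, whose disulfide bridge can react with thiol groups in cells. Chaetocin is known as an inhibitor of histone H3 lysine 9 methyltransferases such as SUV39H1, and chetomin for disturbing the binding of hypoxia-inducible factor to the coactivator p300. Cells meet damage to protein thiols and misfolded protein with HSF1, which switches on heat shock chaperones, with NRF2, which switches on antioxidant enzymes, and with the unfolded protein response of the endoplasmic reticulum. The study behind the series concerned metal response genes and the acetyltransferases p300 and CBP, so these are given whether or not they were called.

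Values are the deposited normalized levels, which follow transcript length. A log2 difference is the intact minus the analog mean of log2(value + 1) with its SE, and this scale understates the change of genes at low levels. A gene was called when its Benjamini-Hochberg adjusted p from limma was under 0.05 over all genes tested. Library sums over the 14162 genes ran from 875425 to 1156440, and the top 10 genes took 9.42% to 17.3% of them; no read counts were used, so the depth is unknown. MeS-chaetocin replicate 1 stood apart from the other analog libraries: its correlation with its own replicate was 0.970, against 0.991 to 0.994 among the other 3, and its highest correlation was with vehicle replicate 1, at 0.992. A library's deviation from the gene means was also correlated with exon length, at Spearman rho -0.03 and -0.30 in chaetocin, -0.13 and -0.18 in chetomin, 0.39 and 0.41 in MeS-chetomin, 0.34 in MeS-chaetocin replicate 2 and -0.34 in MeS-chaetocin replicate 1. The lean thus ran with the contrast in all but that library, and its part in the results was not tested beyond the fit with the length trend removed.

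With the intact compounds HMOX1, EGR1, NR4A1, HSPA1A and DNAJB1 rose in both scaffolds, and MYC and DKK1 fell. As the samples are bulk RNA, fewer cells of a type and less RNA per cell cannot be told apart. HMOX1, the enzyme that breaks down heme, stood at 284 and 328 in the chaetocin libraries and 977 and 963 in the chetomin libraries, against 46.4 and 50.2 in MeS-chaetocin and 17.3 and 19.9 in MeS-chetomin. Both arms were clearly apart, and MeS-chaetocin was above MeS-chetomin and above the vehicle, at 15.1 and 16.7. HMOX1 (chr22:35380361-35394214, GRCh38, plus strand) differed by 4.14 ± 0.51 (adjusted p = 0.000565, limma).

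EGR1, a zinc finger transcription factor of the immediate early response, stood at 501 and 410 with chaetocin and 806 and 754 with chetomin, against 16.9 and 23.7 with MeS-chaetocin and 39.8 and 48.8 with MeS-chetomin. It differed by 4.27 ± 0.14 (adjusted p = 3.23e-06, limma). NR4A1, an orphan nuclear receptor induced by many stimuli, stood at 190 and 161 with chaetocin and at 592 and 540 with chetomin, against 14.6 to 21.6 over the 4 analog libraries. It differed by 4.01 ± 0.27 (adjusted p = 6.08e-05, limma). In both genes every intact library was above every analog library, and the analogs lay near the vehicle, at 30.3 and 38.6 for EGR1 and 13.99 and 15.1 for NR4A1. FOSB (3.87 ± 0.18) and JUN (3.06 ± 0.23), subunits of the AP-1 transcription factor, and DUSP2, a phosphatase that acts on MAP kinases (4.15 ± 0.34), were called with them.

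**Figure D1:**
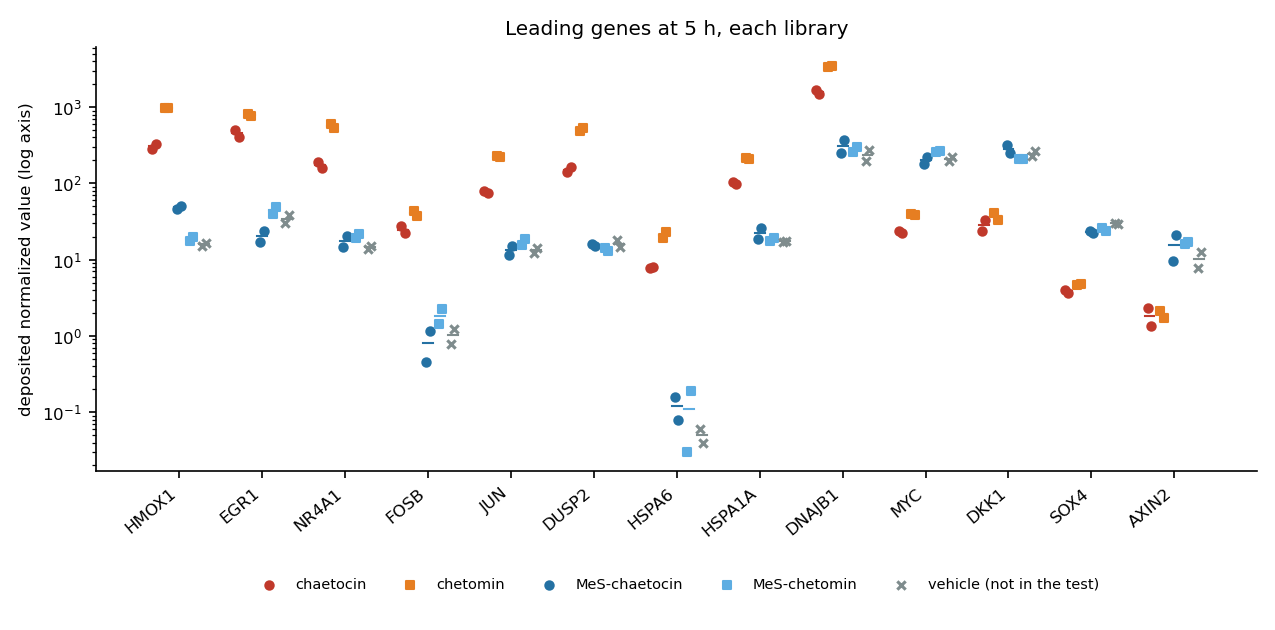
Deposited normalized value of 13 leading genes in each 5 h library on a log axis, with points for libraries and short lines for group means; the vehicle is shown for reference and was not tested. In each gene from HMOX1 to DNAJB1 the 4 intact libraries lie above the 4 analog libraries, and in MYC, DKK1, SOX4 and AXIN2 they lie below them.

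The sequences of 3 promoters are shown because these genes carry the heat shock and immediate early part of the response. They run from 250 bases before to 50 bases after the RefSeq start (GRCh38.p14, all on the plus strand). Capitals mark matches, on either strand, to 2 neighbouring heat shock units, GAANNTTC or TTCNNGAA, to 3 units, in which GAA and TTC alternate with 2 bases between them and which contain the pair, and to the CArG box bound by serum response factor, CC followed by 6 A or T and GG.
HSPA1A chr6:31815293-31815592: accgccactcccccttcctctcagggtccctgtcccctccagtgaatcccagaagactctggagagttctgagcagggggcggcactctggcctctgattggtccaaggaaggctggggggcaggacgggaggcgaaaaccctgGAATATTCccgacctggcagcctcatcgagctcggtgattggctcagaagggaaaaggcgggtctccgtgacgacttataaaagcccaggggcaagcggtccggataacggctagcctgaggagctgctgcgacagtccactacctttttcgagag
HSPA6 chr1:161524290-161524589: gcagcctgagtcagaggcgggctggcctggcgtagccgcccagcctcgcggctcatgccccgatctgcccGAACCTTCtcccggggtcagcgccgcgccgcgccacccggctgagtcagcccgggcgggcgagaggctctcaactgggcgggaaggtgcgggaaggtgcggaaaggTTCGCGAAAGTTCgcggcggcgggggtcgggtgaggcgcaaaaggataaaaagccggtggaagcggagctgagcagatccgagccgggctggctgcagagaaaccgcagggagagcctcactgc
EGR1 chr5:138465229-138465528: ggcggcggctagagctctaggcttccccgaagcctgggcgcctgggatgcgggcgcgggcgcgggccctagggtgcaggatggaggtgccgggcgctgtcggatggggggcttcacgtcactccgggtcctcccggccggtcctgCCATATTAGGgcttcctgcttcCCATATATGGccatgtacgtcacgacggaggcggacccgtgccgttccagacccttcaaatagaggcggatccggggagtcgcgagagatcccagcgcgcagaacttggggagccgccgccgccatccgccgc

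HSPA6 held a 3-unit match 74 bases before its start, HSPA1A a 2-unit match 106 bases before, and EGR1 CArG boxes 105 and 83 bases before. These promoters and motifs were chosen after the sequences had been seen. In all, 5 motifs were searched in the promoters of 20 genes that were picked by hand and had an entry. They are not a set of risers: DKK1 and SLC30A1, which fell, and CHAC1, not called in the shared effect, were among them. The 2-unit motif was added because HSPA1A and others held no 3-unit match. The 3-unit motif was in 1 of the 20, the 2-unit motif in 5, the CArG box in 1, the cyclic AMP response element TGACGTCA in 0 and the antioxidant response element TGACNNNGC (or GCNNNGTCA) in 3, and 13 of the 20, DNAJB1, BAG3, FOSB, NR4A1 and FOS among them, held none of the 5. Over all 27305 promoters of the table the shares were 0.487%, 13.7%, 1.29%, 1.98% and 13.6% in that order. Over the 848 risers with a promoter they were 0.825%, 11.2%, 1.06%, 3.66% and 14.9%, and over the 10564 tested genes with one 0.331%, 9.78%, 1.01%, 3.35% and 15.2%. A match is a description of the letters and not a site of binding.

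HSPA6, a heat-inducible HSP70 that is nearly silent in unstressed cells, stood at 7.74 and 8.04 with chaetocin and 19.0 and 22.8 with chetomin, against 0.03 to 0.19 over the analogs. It differed by 3.64 ± 0.26 (adjusted p = 6.90e-05, limma). HSPA1A, the main inducible HSP70, stood at 106 and 98.2 with chaetocin and 214 and 209 with chetomin, against 17.8 to 25.7 over the analogs, a difference of 2.81 ± 0.24 (adjusted p = 0.000138, limma). Its near-identical neighbour HSPA1B, named here after its values were seen, stood at 2912 to 8374 in the intact libraries and 679 to 1036 in the analogs. The sources used here do not say how reads were divided between these 2 copies, so the separate levels are uncertain. DNAJB1, the HSP40 partner of HSP70 (2.98 ± 0.25), BAG3, an HSP70 co-chaperone (2.70 ± 0.19), and ZFAND2A, a zinc finger protein induced by arsenite (2.75 ± 0.14), were called as well.

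Among the fallers, MYC, a transcription factor that drives growth, stood at 23.8 and 22.4 with chaetocin and 39.8 and 38.2 with chetomin, against 182 and 221 with MeS-chaetocin and 256 and 262 with MeS-chetomin. It fell by 2.88 ± 0.11 on the log2 scale (adjusted p = 4.68e-06, limma), and the arms did not overlap. DKK1, a secreted inhibitor of Wnt signalling, stood at 23.5 to 40.8 over the intact libraries and 207 to 321 over the analogs, and fell by 2.88 ± 0.20 (adjusted p = 6.08e-05, limma). TMEM177, which takes part in the assembly of cytochrome c oxidase, stood at 3.25 to 5.98 against 29.9 to 31.6 and fell by 2.62 ± 0.15. GEMIN7, a subunit of the SMN complex, stood at 7.76 to 15.2 against 54.4 to 83.8 and fell by 2.43 ± 0.21. The intact libraries were below every analog library in each of these genes. PDE4B, a phosphodiesterase of cyclic AMP (-2.38 ± 0.23), DUSP7, a phosphatase of MAP kinases (-2.21 ± 0.17), and MARS2, the mitochondrial methionyl-tRNA synthetase (-2.07 ± 0.18), were also called.

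Over all genes 4561 of 14162 were called (32.2%), 1313 higher (9.27%) and 3248 lower (22.9%) with the intact compounds. Of these, 422 rose and 822 fell by at least 1. The median difference of all genes was -0.15, and the balance of directions depended on the scale. On the authors' CPM scale the median was 0.08, a shift of 0.23, and 2657 genes rose (18.8%) and 1675 fell (11.8%). With median-of-ratios scaling the shift was 0.18, and 2135 rose and 2054 fell. The excess of lower genes was thus seen on the deposited scale and not on the others. Median-of-ratios scaling centres each library on its median ratio, so a near-even split is largely built in. Which scale is right was not tested. The named genes above kept their direction and call on all 3 scales. Without MeS-chaetocin replicate 1 there were 7440 calls, 2141 higher (15.1%) and 5299 lower (37.4%), in place of 4561. With the length trend removed 1347 rose (9.51%) and 3400 fell (24%). In 1316 genes (9.29%) all intact libraries were above all analog libraries, and in 2826 (20%) below them.

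The difference in each pair comes from its own 4 libraries, but the spread behind the calls was estimated over all 8, so the counts of the pairs are not independent. Chaetocin against MeS-chaetocin called 2018 genes (14.2%), 715 higher (5.05%) and 1303 lower (9.2%), and chetomin against MeS-chetomin 3193 (22.5%), 945 higher (6.67%) and 2248 lower (15.9%). Fitted on their own 4 libraries, the pairs called 251 and 6777. On the CPM scale these splits were 973 and 765, and 2053 and 915; with median-of-ratios scaling they were 971 and 939, and 1400 and 1317. Both pairs called 1449 genes, of which 1443 went the same way; the 1449 were 71.8% of the chaetocin calls and 45.4% of the chetomin calls. Over 8693 genes with a mean of at least 5, the differences of the 2 pairs had r = 0.69, a description across genes that share libraries within a pair. Of the genes called in the shared effect, 499 risers and 944 fallers were also called in both pairs. The chaetocin count moved by more than 1.5 times whichever library was left out, and the chetomin count without any library but those of chaetocin; they ran from 689 without chaetocin replicate 2 to 3807 without MeS-chaetocin replicate 1 in the chaetocin pair, and from 723 without MeS-chetomin replicate 2 to 5960 without MeS-chaetocin replicate 1 in the chetomin pair.

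**Figure D2:**
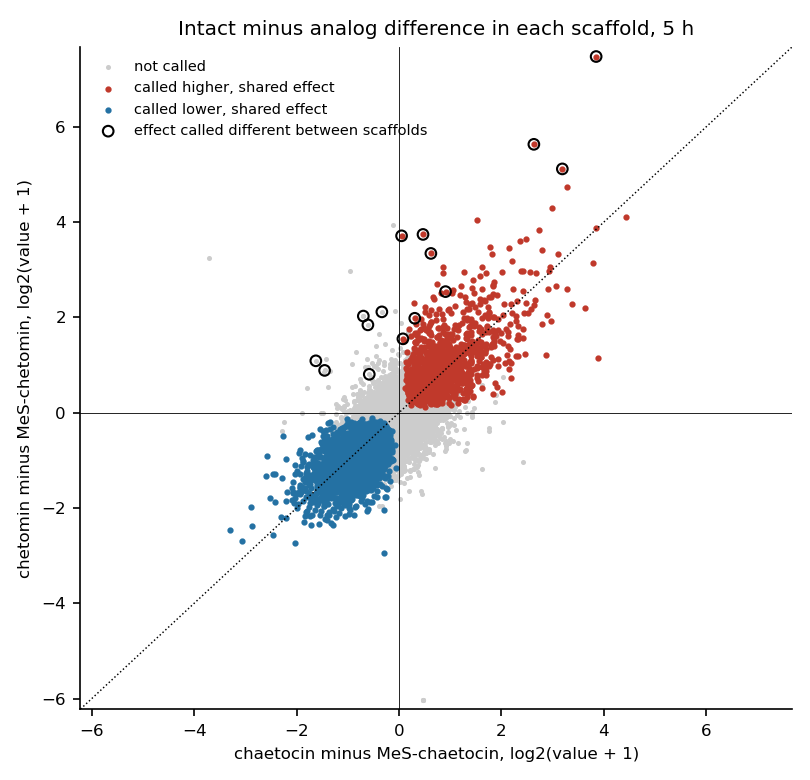
Each point is a gene: difference of chaetocin against MeS-chaetocin on the horizontal axis and of chetomin against MeS-chetomin on the vertical axis, both on the log2(value + 1) scale, with the line of equality dotted. Red genes rose and blue genes fell in the shared effect, and the 15 circled genes had effects that differed between the scaffolds, all higher with chetomin.

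Gene groups are described by how many measured members were called, beside 9.27% higher and 22.9% lower over all genes and the median of -0.15. Of 29 heat shock genes measured 16 rose and 0 fell, with a median of 0.49. HSF1, the regulator itself, was at -0.10 and was not called. Of the ER chaperone and unfolded protein response list 11 of 23 rose and 1 fell (median 0.33), led by DNAJB9 (1.72 ± 0.38), XBP1, the transcription factor of that response (1.68 ± 0.17), HERPUD1, which serves degradation of ER proteins (1.40 ± 0.10), and MANF, a secreted ER stress protein (1.06 ± 0.21). XBP1 stood at 138 and 149 with chaetocin and 225 and 250 with chetomin, against 52.4 to 61.2 over the analogs, so the arms did not overlap. The mean of DNAJB9 was 1.70 times that of the analog with chaetocin and 7.51 times with chetomin. The list median was 0.42 in the chaetocin pair and 0.18 in the chetomin pair.

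Of the immediate early list 18 of 29 rose and 6 fell, with a median of 1.24, so the list was split. The risers included EGR1, NR4A1, FOSB and JUN. Among the fallers was MCL1, an anti-apoptotic BCL2 protein with a short-lived transcript (-1.82 ± 0.22), at 14.4 to 24.96 with the intact compounds and 48.5 to 83.2 with the analogs. The MAPK feedback inhibitors moved mostly down, with 4 of 16 higher and 9 lower (median -0.85): DUSP2 rose, while DUSP7 and DUSP4, which act on ERK (-1.44 ± 0.16), fell. Of the MYC and MAX network 1 of 11 rose and 7 fell (median -0.41; 1 and 3 on the CPM scale). The 1 riser was MXD1, a MAX partner that opposes MYC, at 3.56 to 7.15 against 0.32 to 1.03 and a difference of 1.86 ± 0.18.

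In the NRF2 list 4 of 28 rose and 0 fell (median 0.23): HMOX1, GCLM, MAFG and SQSTM1. SQSTM1, an autophagy receptor, had an adjusted p of up to 0.103 without a single library. GCLM, a subunit of the enzyme that makes glutathione's precursor, differed by 1.01 ± 0.26 (adjusted p = 0.0174, limma; not called without any 1 of the 4 chetomin-type libraries, at adjusted p up to 0.0608). By pair, 2 rose and 2 fell with chaetocin against its analog, and 7 rose and 0 fell with chetomin. The 2 fallers were OSGIN1 and SRXN1. In OSGIN1 chaetocin lay above the vehicle, at 6.87 and 7.16, and MeS-chaetocin lay further above it. In all, 3 members, HMOX1, OSGIN1 and SRXN1, were called in the difference between scaffolds. NQO1 (0.17) and TXNRD1 (0.15), classical NRF2 targets named here after their values were seen, were not called. SRXN1, which reduces oxidized peroxiredoxins and was also named after its values were seen, fell in the chaetocin pair (-0.58 ± 0.12) and rose in the chetomin pair (0.81 ± 0.12), so its shared value of 0.11 averages opposite changes. Its vehicle, at 74.7 and 79.6, lay above chaetocin, at 62.95 and 66.8, and below MeS-chaetocin, at 91.6 and 103.5. On the CPM scale 17 of the 28 were called higher, and without MeS-chaetocin replicate 1 14 were higher and 1 lower, so the count depends on the scale and on that library. Of the 26 thioredoxin, peroxiredoxin and glutathione enzymes 1 rose and 0 fell (median 0.11), while 11 rose on the CPM scale and 12 without MeS-chaetocin replicate 1.

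The integrated stress response list had 3 of 25 higher and 3 lower (median -0.07). ATF3 (2.58 ± 0.34) and DDIT3, which encodes CHOP (2.11 ± 0.25), rose. DDIT3 stood at 80.9 and 103 with chaetocin and 185 and 212 with chetomin, against 26.8 to 36.4 over the analogs. CEBPB (-1.75 ± 0.31) and ATF5 (-1.42 ± 0.16), both bZIP transcription factors, fell. The pairs differed in their counts, with 3 higher and 5 lower in the chaetocin pair (median -0.30) and 9 higher and 2 lower in the chetomin pair (median 0.08), and 3 members were called in the difference between scaffolds. Without MeS-chaetocin replicate 1 the shared effect had 4 higher and 7 lower.

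Of the Wnt target list 0 of 14 rose and 6 fell (median -0.40). AXIN2, a negative regulator of beta-catenin that is itself a target, stood at 1.36 to 2.32 with the intact compounds and at 9.61, 21.2, 15.9 and 16.8 in the analogs (-2.51 ± 0.24). SOX4 (-2.25 ± 0.12) and SOX9 (-1.999 ± 0.19), transcription factors of the intestinal epithelium, fell as well. In the NF-kB list 0 of 15 rose and 5 fell, against 4 and 2 on the CPM scale and 1 and 9 without MeS-chaetocin replicate 1; NFKBIA, the inhibitor that NF-kB induces, stood at 3.05 to 7.12 against 14.96 to 16.5 (-1.61 ± 0.18). Of the p53 targets 2 of 28 rose and 9 fell (2 and 5 on the CPM scale), led by PLK2 (-1.71 ± 0.20) and PHLDA3 (-1.51 ± 0.15). Of 15 genes of P-TEFb, HEXIM and BET proteins 0 rose and 7 fell, MEPCE (-1.58 ± 0.10) and ELL (-1.20 ± 0.18) among them. The mitosis list had 1 of 23 higher and 15 lower (median -0.47), led by NEK2 (-1.13 ± 0.13), but on the CPM scale 2 rose and 4 fell.

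**Figure D3:**
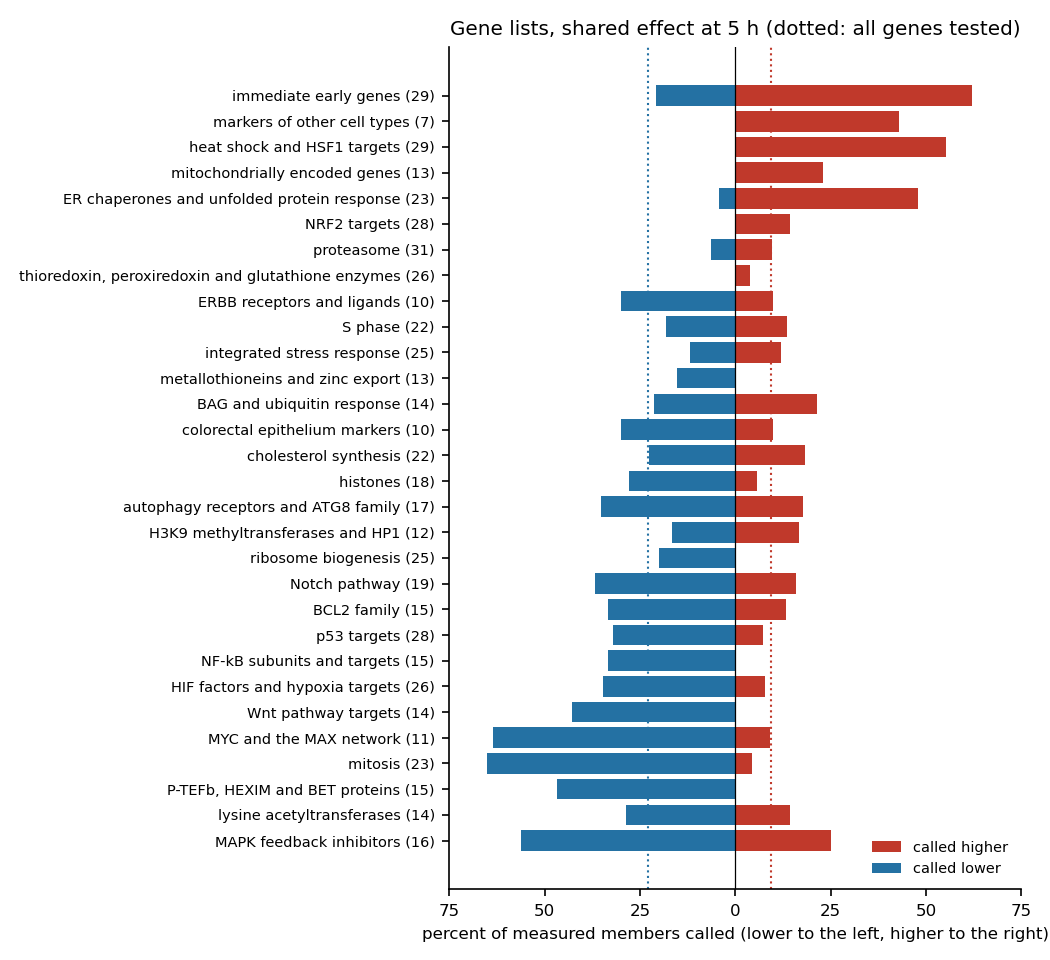
Percent of the measured members (number in brackets) of 30 gene lists that were called lower, to the left, or higher, to the right, in the shared effect at 5 h, ordered by median difference. Dotted lines mark the shares over all genes tested, 22.9% lower and 9.27% higher; heat shock, immediate early and ER chaperone lists reach furthest to the right.

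The counts of other lists depended on the scale and on MeS-chaetocin replicate 1, and are given as higher and lower. The hypoxia list of 26 had 2 and 9, against 5 and 5 on the CPM scale and 2 and 15 without that library, with ADM, a hypoxia-induced peptide hormone, at -1.56 ± 0.16. Notch genes had 3 and 7 of 19 (CPM 4 and 5, without the library 4 and 8), and the BCL2 family 2 and 5 of 15 (3 and 4, 2 and 6). Autophagy genes had 3 and 6 of 17 (6 and 3, 4 and 8), BAG and ubiquitin genes 3 and 3 of 14 (5 and 2, 5 and 7), and ERBB genes 1 and 3 of 10 (2 and 0, 2 and 4). Ribosome biogenesis had 0 and 5 of 25 (5 and 3, 2 and 12), led by POLR1C, a subunit of RNA polymerases I and III (-1.56 ± 0.10). S phase genes had 3 and 4 of 22 (7 and 0, 4 and 9), the proteasome 3 and 2 of 31 (19 and 0, 17 and 4), and histones 1 and 5 of 18 (3 and 2, 1 and 5). Cholesterol synthesis had 4 and 5 of 22 (6 and 1, 6 and 8), and INSIG1, which restrains sterol synthesis, moved furthest (1.87 ± 0.17). The mitochondrially encoded genes had 3 and 0 of 13 (6 and 0, 4 and 0; median 0.38), and 0 were called with the length trend removed.

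Among the metal response genes SLC30A1, the zinc exporter of the plasma membrane, fell. It stood at 1.74 and 1.23 with chaetocin and 1.20 and 1.51 with chetomin, against 3.21 and 3.43 with MeS-chaetocin and 5.29 and 3.74 with MeS-chetomin, a difference of -1.01 ± 0.17 (adjusted p = 0.00224, limma). All intact libraries were below all analog libraries. The metallothioneins, small proteins that bind zinc, were not called: MT1X differed by -0.40 ± 0.15 (adjusted p = 0.0677, limma) and MT2A by -0.02 ± 0.17 (95% interval -0.40 to 0.36). Their list had 0 of 13 members higher and 2 lower (median -0.08). MT1X was called with the length trend removed, at -0.57 (adjusted p = 0.0147, limma), and without MeS-chaetocin replicate 2, at -0.55 (adjusted p = 0.0063, limma).

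EP300 and CREBBP, which encode p300 and CBP, were not called, and their differences were larger without 1 library. EP300 stood at 4.15, 2.16, 5.65 and 3.69 in the intact libraries, at 2.16 and 9.11 in MeS-chaetocin and at 9.73 and 13.5 in MeS-chetomin. MeS-chaetocin replicate 1 lay among the intact libraries, and the other 3 analog libraries lay above them. EP300 differed by -0.82 ± 0.37 (adjusted p = 0.119, limma) and, without that library, by -1.23. CREBBP differed by -0.70 ± 0.30 (adjusted p = 0.107, limma) and, without it, by -1.04. Without that library the length lean ran fully with the contrast. Its rho was 0.34 to 0.41 in the remaining analog libraries and -0.03 to -0.30 in the intact libraries. The part of this lean in the larger differences was not tested. Of 14 lysine acetyltransferases 2 rose and 4 fell, and without that library 2 rose and 8 fell; KAT5 stood at 67.6 to 113 against 37.6 to 43.8 (0.99 ± 0.15), and KAT7 at 5.73 to 10.4 against 12.1 to 31.0 (-1.35 ± 0.22). Of 12 genes of H3K9 methylation and HP1 2 rose and 2 fell, with CBX5, an HP1 protein, at 1.06 ± 0.13 and SUV39H2 at -0.72 ± 0.15. More of the 12 fell without that library. SUV39H1 was called at -0.56 (adjusted p = 0.0121, limma). It was not called on the CPM scale (adjusted p = 0.109, limma) or with median-of-ratios scaling (adjusted p = 0.073, limma).

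Of 15 epithelial markers 10 were measured, and their summed level was 4825 to 5664 with the intact compounds and 4084 to 5236 with the analogs. CDX1, VIL1, CEACAM5, LGR5 and MUC2 of that list were not among the genes tested, so the sum does not show colorectal identity. Of the 10, 1 rose, 3 fell and 6 were not called. KRT18, a keratin of simple epithelia, rose (0.37 ± 0.11), but was not called in 6 of the 8 fits without a single library, at adjusted p up to 0.113 (limma). CDX2, an intestinal transcription factor (-1.37 ± 0.15), and CLDN4, a tight junction protein (-1.47 ± 0.14), fell. CLDN3, another claudin, fell by 0.59 ± 0.16 on the deposited scale and was not called on the CPM scale (adjusted p = 0.139), with median-of-ratios scaling (adjusted p = 0.113) or in 5 of the 8 fits without a single library. Of 20 markers of other cell types 7 were measured, at a summed level of 12.7 to 17.97 against 5.73 to 11.5. Of these 3 rose, ALB (1.66 ± 0.18), CD14 (1.24 ± 0.14) and ACTA2 (0.72 ± 0.22, adjusted p = 0.0369, limma, and up to 0.111 without a single library); ALB stood at up to 3.21 with the intact compounds and at 0 in 3 of the 4 analog libraries. The other 13 are not among the genes of these tables, which leave out genes at low levels, so these 7 are not a sample of all markers. The part of these markers in the results was not tested.

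Of 1008 long noncoding RNAs listed, 273 rose (27.1%) and 99 fell (9.82%), against 7.44% and 24.7% of 12520 protein-coding genes. Transcripts named as divergent (DT) rose in 47 of 114 (41.2%) and fell in 5, and those named antisense (AS) rose in 66 of 270 and fell in 20. Among genes with a mean under 5, 28.6% of the noncoding and 11.3% of the coding genes rose. Long noncoding genes made up 20.95% of the annotated risers and 3.05% of the annotated fallers. With the length trend removed these shares were 16.5% and 3.74%. The classes were not counted on the CPM scale. Numbered ZNF zinc finger genes went the other way, with 41 of 405 higher and 145 lower (35.8%). The tables leave out genes at low levels, so a noncoding gene at a low level could be listed through the group where it is high; the share of risers among the listed ones is not a share of all noncoding genes. These classes were chosen after the data had been seen, and no test was made of them.

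The noncoding risers were led by LINC00659, at 41.8 and 47.6 with chaetocin and 346 and 374 with chetomin, against 2.24 and 2.08 with MeS-chaetocin and 1.28 and 0.80 with MeS-chetomin (5.66 ± 0.62). EMC1-AS1 (3.47 ± 0.23), TBC1D22A-DT (3.22 ± 0.12) and RALY-AS1 (3.10 ± 0.29) followed. No source used here gives the strand setting of the counting, so reads of an antisense gene and its sense partner cannot be told apart. Coding genes with at most 3 exons made up 13.5% of coding risers, 12.4% of coding fallers and 8.23% of coding genes not called; with the length trend removed the shares were 10.3%, 14.3% and 7.78%, so the order of risers and fallers turned.

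In the main fit of all 8 libraries, the signed difference between intact compound and analog differed between scaffolds in few genes. In all of them it was more positive with chetomin. The test of that difference called 15 of 14162 genes (0.106%), and 1158 had an unadjusted p under 0.05. ARC, an immediate early gene of the cytoskeleton in neurons, stood at 4.98 in both chaetocin libraries and at 76.0 and 74.7 with chetomin, against 4.27 to 5.32 over the analogs. Its effect was 0.05 ± 0.19 in the chaetocin pair and 3.71 ± 0.19 in the chetomin pair, a difference of 3.66 ± 0.26 (adjusted p = 0.00271, limma). NRARP, a feedback inhibitor of Notch signalling, stood at 7.53 and 7.91 with chaetocin, at 73.7 and 75.7 with chetomin and at 4.55 to 5.82 over the analogs, a difference of 3.27 ± 0.24. For these 2 genes chaetocin lay at or near the analogs, and only chetomin was far above them.

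LINC00659 (3.63 ± 0.25) and HMOX1 (2.999 ± 0.19) rose in both pairs and more with chetomin. For HMOX1 the pair effects were 2.64 ± 0.14 and 5.63 ± 0.14, and its analogs also differed, at 46.4 and 50.2 against 17.3 and 19.9. OSGIN1, an oxidative stress gene, stood at 8.85 and 10.0 with chaetocin, below its analog at 14.95 and 16.9. It stood at 32.7 and 33.1 with chetomin, above its analog at 7.41 and 7.20 (2.72 ± 0.23). The vehicle was at 6.87 and 7.16 for OSGIN1, so chaetocin lay above the vehicle and MeS-chaetocin further above it. BBC3, which encodes the apoptosis regulator PUMA, fell by 1.62 in the chaetocin pair and rose by 1.09 in the chetomin pair, at 2.07 and 2.80 with chaetocin against 10.4 and 8.74, and at 17.2 and 20.4 with chetomin against 8.76 and 7.77 (2.71 ± 0.30, adjusted p = 0.0222, limma). TRIB3, DDIT4 and CHAC1, targets of the integrated stress response that were named after their values were seen, were called too, at 2.45, 2.45 and 2.34. CHAC1, like BBC3, was further from its analog with chaetocin (-1.45) than with chetomin (0.89).

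Leaving out a library leaves its compound with 1, which is then assumed to vary like the other groups. Without chetomin replicate 2 the test called 0 genes and all 6 genes named by rule lost their calls, with adjusted p from 0.0563 to 0.185; without MeS-chaetocin replicate 2 it called 1972. It called 38 without MeS-chaetocin replicate 1, 2 without MeS-chetomin replicate 1, 6 without chaetocin replicate 1 or MeS-chetomin replicate 2, and 8 without chaetocin replicate 2. The median width of the 95% interval of this difference over the 4561 genes of the shared effect was 1.36, and in 2363 of them the whole interval lay within 1 of 0. A gene that was not called is therefore not shown to respond alike to both compounds. With median-of-ratios scaling 16 genes were higher and 2 lower with chetomin. Genes lower with chetomin were also called without chetomin replicate 1 and without either MeS-chaetocin replicate. They were the majority without MeS-chaetocin replicate 2, so the single direction did not hold under every alternative.

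**Figure D4:**
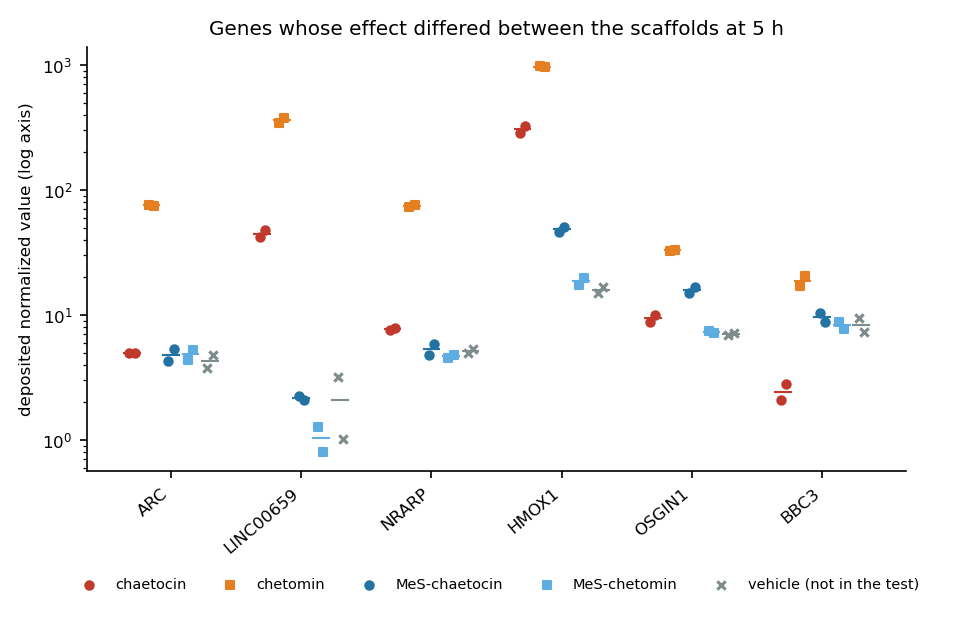
Deposited normalized value of 6 genes whose effect differed between the scaffolds, in each 5 h library on a log axis, with short lines for group means. Chetomin is above all other groups in each gene; chaetocin is near the analogs in ARC and NRARP and below them in BBC3.

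The direction found at 5 h was mostly found again at 12 h, in other libraries under the same contrast. Of 1282 genes that rose at 5 h and were tested at 12 h, 1162 were called higher there and 3 lower; of 3241 that fell, 2674 were called lower and 34 higher. At 12 h 3578 of 15159 genes were called higher and 6074 lower. The change of the effect from 5 h to 12 h was called in 1592 of 14006 genes (11.4%), 873 higher (6.23%) and 719 lower (5.13%) at 12 h. On the CPM scale the split was 1071 and 486, and with median-of-ratios scaling 1198 and 571. The count was 997 without chaetocin replicate 2 at 5 h, and 1025, 999 and 977 without chaetocin replicate 1, chaetocin replicate 2 and MeS-chaetocin replicate 2 at 12 h. The tables of the 2 times were normalized separately, so only differences within a time were compared.

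MIR22HG, the host gene of microRNA 22, stood at 2.88 to 9.92 with the intact compounds at 5 h against 1.09 to 2.13 with the analogs, and at 36.8 to 62.1 against 0.98 to 1.38 at 12 h, a change of 3.24 ± 0.31 (adjusted p = 8.20e-05, limma). TRIM22, an interferon-inducible antiviral protein, stood at 0.22 to 2.26 with the intact compounds at 5 h and 11.2 to 16.1 at 12 h, with the analogs at 0 to 0.11 at both times (2.79 ± 0.26). DIO3, which inactivates thyroid hormone (2.62 ± 0.18), and STAP2, a signalling adaptor (2.42 ± 0.24), increased in the same way. In these 4 genes the groups at 12 h did not overlap.

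SLC2A1, the glucose transporter GLUT1, stood at 124 to 187 with the intact compounds and 124 to 335 with the analogs at 5 h, where the arms overlapped, and at 44.4 to 70.6 against 265 to 394 at 12 h, a change of -1.90 ± 0.34 (adjusted p = 0.00331, limma). EPN3, an endocytic epsin (-1.86 ± 0.34), and MAGI1, a scaffold protein of cell junctions (-1.95 ± 0.40), changed in that direction too. EGR4 stood at 2.97 to 7.03 against 0.09 to 0.25 at 5 h and at 0.47 to 1.12 against 0.14 to 0.37 at 12 h, so its rise had shrunk (-1.68 ± 0.22). MYC was at -2.88 at 5 h and -1.86 at 12 h (change 1.02 ± 0.17, adjusted p = 0.00241, limma), HSPA1A at 2.81 and 4.30 (change 1.499 ± 0.30), and EGR1 at 4.27 and 3.98 (change -0.29 ± 0.20, not called). MT1X and MT2A, not called at 5 h, were at -1.27 and -0.78 at 12 h, with changes of -0.87 ± 0.19 and -0.76 ± 0.20.

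**Figure D5:**
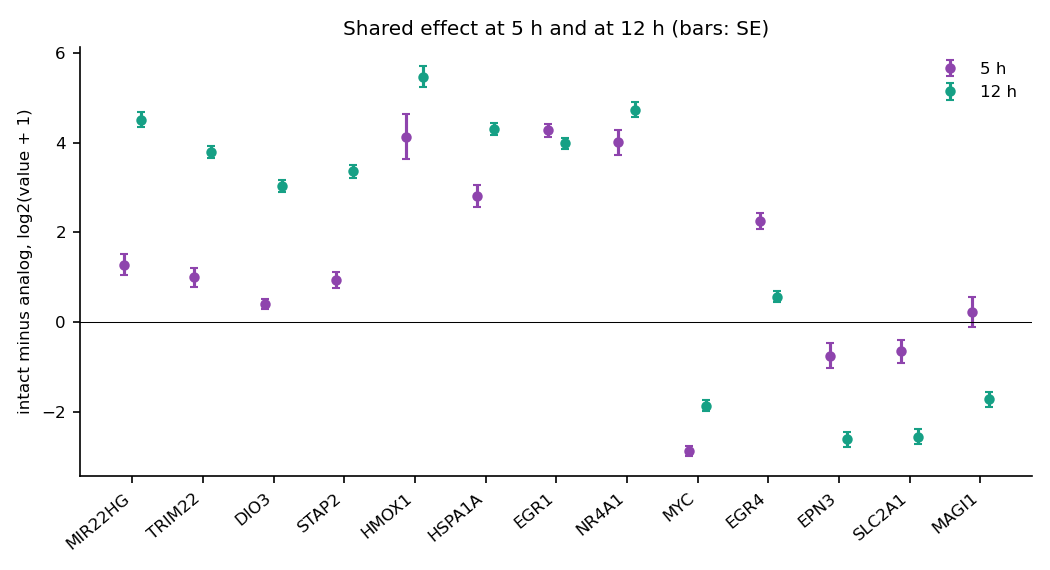
Intact minus analog difference on the log2(value + 1) scale for 13 genes at 5 h and at 12 h, with bars for the SE. MIR22HG, TRIM22, DIO3 and STAP2 are higher at 12 h, SLC2A1, EPN3 and MAGI1 fall below 0 at 12 h or further below it, and EGR1 is close at both times.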

How the data were processed

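HCT116 RNA was sequenced from poly(A) libraries, per the labels' protocols. Per the submitters' processing notes, the authors used STAR 2.5.2b, RSEM 1.3.3 and edgeR (no version) with GRCh38, the parameters, annotation and strand setting being not given in the sources used here. Each deposited table holds a normalized signal per library, whose unit the headers do not name, and the authors' mean CPM per group. The deposited log2 fold changes, p-values and q-values against vehicle were not used.

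limma 3.58.1 in R 4.3.3, with an intensity trend, was fitted to log2(value + 1), pseudocount 1, and no filter beyond the authors' own. The shared effect had an additive scaffold term, and pair effects and the scaffold difference came from group means. The change with time was the interaction of intact compound with time, with a scaffold term within each time. All tests were two-sided with Benjamini-Hochberg adjustment over all genes tested. The pair fits have 2 libraries per group, so their calls rest on spread pooled over genes. Gene types and exons came from GENCODE 29, matched for 14125 of 14162 genes; symbols matched for 14070. The fits were tested on simulated data; that of the scaffold difference recovered the smallest share of changed genes, missed the limit first set for it, and passed only after that limit was lowered, so it can miss real differences.

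The comparison, its members, the gene lists and the named genes were chosen with earlier results of these data known. Genes were named by a rule: 12 always given, the 12 largest non-overlapping called genes each way with a mean of at least 5, up to 4 called members of each list, up to 6 each way for the scaffold difference and 4 for time; not all are printed. Alternatives were pseudocount, filter, scaling, prior variance, covariate, replicate block and leaving out libraries; removal of the length trend, leaving out 2 libraries together and crossed numbers were chosen after seeing the data.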

Additional observations from a re-analysis of the deposited data

Results flagged for a closer look

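Results were flagged where an effect differed between scaffolds or between times by a test of the difference itself (limma). The effect differed between scaffolds in 15 genes. Named among them were ARC (3.66), LINC00659 (3.63), NRARP (3.27), HMOX1 (2.999), OSGIN1 (2.72) and BBC3 (2.71), each a log2 difference of the chetomin effect minus the chaetocin effect.

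The effect differed between 12 h and 5 h in 1592 genes. It was larger at 12 h for MIR22HG (3.24), TRIM22 (2.79), DIO3 (2.62) and STAP2 (2.42), and lower for MAGI1 (-1.95), SLC2A1 (-1.90), EPN3 (-1.86) and EGR4 (-1.68). These 8 kept their calls under every alternative run; the 6 genes of the scaffold difference all lost theirs without chetomin replicate 2.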

How the results depend on the processing

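The count of the shared effect ranged from 3104 to 7440 when single libraries were left out, and was 7074 without MeS-chaetocin replicate 1 and chaetocin replicate 2 together; where a group kept 1 library, it was assumed to vary like the other groups. Of the 130 named genes called, 97 kept the call whichever library was left out; 18 lost it on the CPM scale. The chaetocin pair ranged from 689 to 3807 and called 251 on its 4 libraries alone; the chetomin pair ranged from 723 to 5960, called 6777 on its 4 libraries alone and 6753 without the 2 libraries. The scaffold difference ranged from 0 to 1972 and called 9 with the length trend removed and 23 without the 2 libraries. The change with time ranged from 977 to 2131. The causes were not tested.

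Same-numbered samples did not pair. The correlation of replicate deviations was -0.72 between chaetocin and MeS-chaetocin, and ran from -0.19 to 0.27 between the other groups. In the chaetocin pair, libraries with unlike numbers thus deviated alike, and the reason was not tested. With the replicate number as a block the counts were 3965 for the shared effect, 1401 and 2266 for the chaetocin and chetomin pairs, 9 for the scaffold difference and 1043 for time. With crossed numbers as a block the pairs called 3139 and 7684.

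Signs reversed in 3 genes that were not called. BBC3 (-0.27) was at 0.17 without the 2 libraries, 0.066 without chaetocin replicate 1 and 0.049 without MeS-chaetocin replicate 1, and lowest, at -0.58, without chetomin replicate 2. MAGI1 (0.22) was at -0.12, -0.021 and -0.12 in that order and highest, at 0.41, without MeS-chetomin replicate 2. MT2A (-0.02) was at 0.27 on the CPM scale, 0.21 with median-of-ratios scaling, 0.060, 0.014 and 0.13 under those 3 omissions, 0.0057 without chetomin replicate 2, 0.0077 without MeS-chetomin replicate 2 and lowest, at -0.20, without MeS-chaetocin replicate 2. No read depth was available, so counting error is not part of these values.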
